A study of Gallus gallus with 4 samples.

Results

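Metalloproteinases, serpins and other protease inhibitors are the genes through which an epithelium cuts, releases and protects proteins at the cell surface and in the matrix beneath it. The group was defined by gene symbol: names that begin with MMP, ADAM, TIMP, SERPIN, TMPRSS or SPINK, together with PLAU, PLAUR, PLAT, CST3, ST14 and A2M. It held 83 of the 13009 genes named on a chicken Affymetrix array, and each gene was represented by its probe set with the highest mean log2 value over the 4 arrays. The rule itself used no measured difference between groups, though it was set with earlier results of these data known.

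The arrays compared 2 surface epithelia of the chicken bursa of Fabricius, a lymphoid organ beside the cloaca where B cells develop. The 2 FAE samples held follicle-associated epithelium, which caps the lymphoid follicles, and the 2 IFE samples held interfollicular epithelium, which covers the folds between them. Both came from healthy Line-M chicks, 19 days old and kept SPF, and cells were picked under a stereomicroscope with a 29G needle after 5 min in black ink. Before picking, the tissue lay in 40 mM EDTA with 25 mM Hepes (pH 7.4). This lasted 5 min at room temperature for FAE and 30 min at 37 °C for IFE, so EDTA treatment and epithelium cannot be told apart in any comparison. The groups follow the sample titles and the cell type label, since the source name of the IFE samples reads FAE. The labels do not say if replicates came from different birds, so the p-values reflect only how far these samples differ, and that spread may be technical.

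Matrix metalloproteinases (MMPs) are secreted or membrane-bound zinc enzymes that degrade collagens and other matrix proteins, and TIMPs bind and block them. ADAM enzymes cut membrane proteins near the cell surface and so release growth factors and cytokines, while the related ADAMTS enzymes are secreted and act on proteoglycans and procollagens. Urokinase, encoded by PLAU, turns plasminogen into plasmin, and serpins trap serine proteases by a reactive loop that the target enzyme cleaves. Membrane serine proteases of the TMPRSS family and matriptase (ST14) work on epithelial surfaces, and Kazal-type inhibitors of the SPINK family restrain trypsin-like enzymes.

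Levels below are scaled signals, that is, deposited MAS5 signals after each array was brought to a common trimmed mean. They compare arrays for 1 gene and not different genes. A positive log2 fold change means higher signal in FAE than in IFE and is given with its standard error (SE). The adjusted p-values come from limma, adjusted over all 23063 tested probe sets and called under 0.05. A signal was taken as not above background where it lay under the 95th percentile of 744 probe sets that name no gene and lack the chicken prefix in their identifier, which was 0.671 and 0.683 for FAE and 0.722 and 1.02 for IFE. IFE replicate 2, which had the highest background, also had a 3'/5' signal ratio of the actin control of 31.2, against 14.4 to 18.6 on the other arrays. Among the tested members, the median absolute log2 difference between replicates was 0.40 in FAE and 0.50 in IFE.

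Of the 83 genes, 60 were bright enough to be tested and 23 were not. Urokinase, the gelatinase MMP2 and its inhibitor TIMP2, the secreted ADAM-like enzyme ADAMDEC1, the stromelysin-like MMP27, the collagenase MMP13 and the matrix protein ADAMTSL1 were higher in FAE. The aggrecanase ADAMTS5, the inhibitor TIMP4, the non-inhibitory serpin SERPINF1 and the membrane enzyme ADAM33 were lower. Thus 7 of 60 tested genes (11.7%) passed as higher, where 6.31% of the 10388 tested genes of the array did, and 4 (6.67%) passed as lower, where 3.96% did. The median log2 fold change was -0.06 over the 60 and -0.07 over all tested genes, so as a whole the group was centred where the array was. Both FAE arrays lay above both IFE arrays for 19 of the 60 (31.7%; 26.7% of all tested genes) and below them for another 19 (31.7%; 32.5% of all tested genes). The remaining 22 overlapped.

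**Figure D1:**
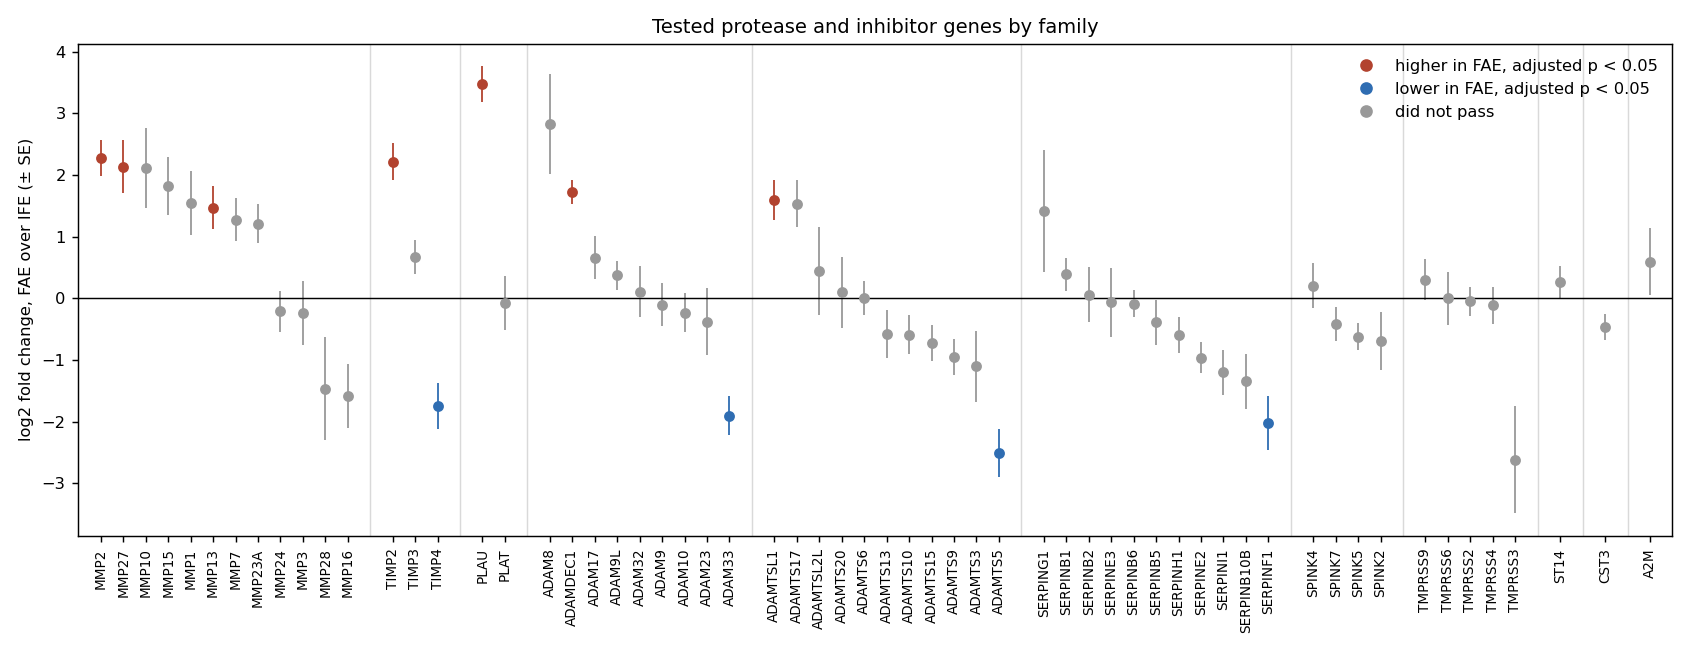
Log2 fold change of FAE over IFE for the 60 tested genes, grouped by family along the horizontal axis, with the SE as bars (n = 2 arrays per group). Red points passed as higher in FAE and blue points as lower. The 12 MMPs spread from 2.27 for MMP2 to -1.59 for MMP16, and the largest value is that of PLAU at 3.48.

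The median log2 fold change lay above 0 in some families and below 0 in others. Of 12 tested MMPs, 8 had both FAE arrays above both IFE arrays and 1 had both below, with a median log2 fold change of 1.37, and 3 passed, all as higher. The 11 tested serpins had a median of -0.39, with 1 gene above, 5 below and 5 overlapping, and 1 passed as lower. The 11 tested ADAMTS and ADAMTSL genes had a median of -0.58, with 2 above and 6 below. Over all tested genes, 26.7% had both FAE arrays above both IFE arrays and 32.5% had both below. Of all tested genes, 6.31% passed as higher and 3.96% as lower. The families are small, and whether they differ from each other or from all tested genes was not tested.

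Markers of other cell types also differed between the groups, and not all in 1 direction. Of 14 macrophage and dendritic cell markers 13 were on the array, and 8 of 12 tested passed as higher and 0 as lower. Their summed signal was 1035 and 883 in FAE against 270 and 257 in IFE. LGALS3 made up most of the IFE sums, at 176 and 182, against 228 and 226 in FAE. MARCO and IRF8 were lower in FAE without a call. Of 13 B cell markers 11 were on the array and tested, and 7 passed as higher, with sums of 525 and 531 in FAE against 125 and 106 in IFE. CD72 and LYN made up most of these sums. PAX5 alone lay the other way, with 1.44 and 0.859 in FAE against 1.52 and 2.65 in IFE, without a call. None of the markers of these 2 lists lay under background on all 4 arrays. Of 5 tested T cell markers 1 passed as higher, and their list summed to 55.6 and 49.1 in FAE against 25.8 and 17.8 in IFE. Of the 5 genes on the array that were listed as heterophil markers, 2 were tested and 1 passed as lower. This list summed to 348 and 485 in FAE against 561 and 779 in IFE. CATHB1 alone had 340 and 476 in FAE against 516 and 713 in IFE, so the sum follows this 1 gene. Whether the CATHB1 signal came from heterophils or from the epithelium itself was not tested, so the sum is no measure of heterophils. CSF3R and LECT2 were under background on all 4 arrays, and LYG2 was above it in FAE only. The 13 fibroblast and muscle markers summed to 29.3 and 44.3 in FAE and to 21.6 and 18.6 in IFE. The only one to pass was VIM, at 2.97, and LUM and ACTA2 were under background on all 4 arrays. Epithelial markers summed to 1142 and 1403 in FAE and to 1944 and 2086 in IFE. Of 10 tested, VIL1 passed as higher and CDH17, ELF3 and PKP2 as lower. The general markers EPCAM and CDH1 were bright on every array but lower on both FAE arrays, without a call. EPCAM had 315 and 412 in FAE against 501 and 554 in IFE. CDH1 had 245 and 320 in FAE against 394 and 484 in IFE. CLDN3 and DSP were higher on both FAE arrays, also without a call. Over all tested genes, 26.7% had both FAE arrays above both IFE arrays and 32.5% had both below. Of 4 tested endothelial markers CDH5 alone passed, at 3.51, while the median of that list was -0.53. HBA1 alone passed of 3 tested erythrocyte markers. It was under background on both IFE arrays and at least 5.61-fold higher in FAE. Of 2 tested thrombocyte markers ITGB3 passed as higher and TUBB1 as lower. The part of these cells in the differences below was not tested, and in such samples more cells of a type and more RNA per cell cannot be told apart.

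MMP2, the gelatinase that degrades basement membrane and denatured collagens, had signals of 45.1 and 34.0 in FAE against 9.62 and 6.83 in IFE. Every FAE value was at least 3 times every IFE value, and the log2 fold change was 2.27 (SE 0.29, adjusted p = 0.00672). MMP13, a collagenase, had 4.59 and 2.98 in FAE against 1.42 and 1.25 in IFE (1.47 on the log2 scale, SE 0.35, adjusted p = 0.0484). The MMP13 call lay next to the threshold and was lost with quantile normalization (adjusted p = 0.0600), with a common median (0.0525), without the filter on dim probe sets (0.0951), with a stricter one (0.0512) and without the intensity trend of limma's variance model (0.106). MMP27 had 3.99 and 2.33 in FAE against 0.580 and 0.830 in IFE, where neither array was above background. It was therefore at least 3.56-fold higher in FAE (adjusted p = 0.0311), and the call was lost without the filter (0.0621) and without the trend (0.0752).

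MMP13 and MMP27 belong to a run of 6 MMP genes that lie next to each other on chromosome 1, in the order MMP13, MMP10, MMP3, MMP1, MMP27 and MMP7 in the assembly bGalGal1.mat.broiler.GRCg7b. Of the 6, all but MMP3 had both FAE arrays above both IFE arrays, where 26.7% of all tested genes did. MMP10, a stromelysin, had 8.18 and 2.14 in FAE against 0.727 and 1.28 in IFE (log2 fold change 2.11, SE 0.64, adjusted p = 0.101). Its FAE values differed more from each other than the lower one did from IFE. MMP1, the interstitial collagenase, had 2.57 and 1.41 in FAE against 0.4996 and 0.846 in IFE, where it was not above background on either array, and was at least 2.22-fold higher (adjusted p = 0.129). MMP7 (matrilysin), which is made by epithelial cells in mammals, had 11.2 and 13.1 in FAE against 6.75 and 3.68 in IFE (1.28, SE 0.35, adjusted p = 0.0748). MMP3 had 0.793 and 1.15 in FAE against 0.846 and 1.50 in IFE, so its groups overlapped near background. The probe sets of MMP1, MMP3 and MMP7 are of the _s_at type, which may match related transcripts, so signal could be shared between these neighbours.

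**Figure D2:**
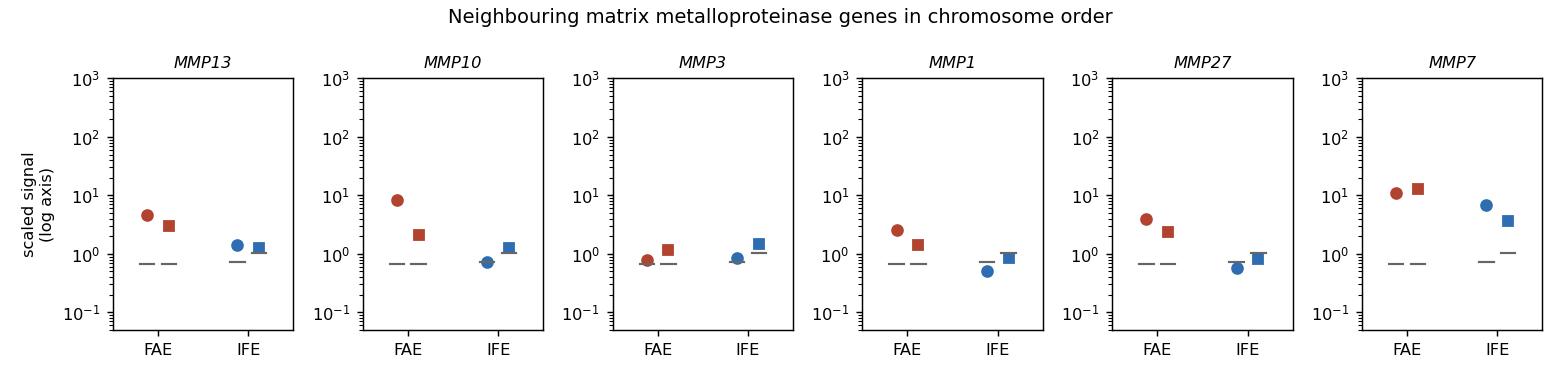
Scaled signal on a log axis for the 6 neighbouring MMP genes, in chromosome order from left to right, with FAE left of IFE in each panel. Circles are replicate 1, squares replicate 2, and grey dashes the background level of that array. In 5 panels both FAE points lie above both IFE points (26.7% of all tested genes did so), while the MMP3 points overlap.

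Among membrane-bound MMPs, MMP15 had 44.0 and 37.2 in FAE against 19.4 and 6.79 in IFE, and MMP23A had 9.05 and 5.71 in FAE against 2.87 and 3.34 in IFE. Neither passed (adjusted p = 0.0645 and 0.0688). The log2 fold change of MMP23A was 1.21 on this probe set, but the mean over its tested probe sets was -0.02 (adjusted p = 0.978). The probe sets of MMP23A therefore disagree. MMP16 lay the other way, with 0.422 and 0.843 in FAE against 1.69 and 1.90 in IFE (adjusted p = 0.120), and its lower FAE value was under background. MMP24 (2.33 to 3.01 in FAE, 2.56 to 3.68 in IFE) and the epithelial enzyme MMP28 (0.307 and 1.58 in FAE, 3.06 and 1.21 in IFE) overlapped between groups. MMP9, the gelatinase stored in granules of heterophils and neutrophils, had signals of 0.328 and 0.0801 in FAE and of 0.213 and 0.244 in IFE, under background on all 4 arrays, as did MMP17. Whether the signal of the 5 genes listed as heterophil markers came from heterophils was not tested. Of these 5, CSF3R and LECT2 were under background on all 4 arrays and LYG2 on both IFE arrays. CATHB1 had 340 and 476 in FAE against 516 and 713 in IFE, and CATH1 passed as lower, with 6.11 and 8.04 in FAE against 44.3 and 65.1 in IFE (-2.94, SE 0.30, adjusted p = 0.00338).

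The 3 TIMPs on the array went in different directions. TIMP2, which blocks MMPs and in mammals also helps to activate pro-MMP2 on the cell surface, had 8.04 and 6.04 in FAE against 1.60 and 1.41 in IFE. Its log2 fold change of 2.22 (SE 0.30, adjusted p = 0.00791) stood beside 2.27 for MMP2. TIMP4 had 2.37 and 4.58 in FAE against 10.3 and 11.9 in IFE and passed as lower, at -1.75 (SE 0.37, adjusted p = 0.0342). TIMP3, which is bound to the matrix and also blocks ADAM17, had 39.1 and 30.6 in FAE against 25.7 and 18.4 in IFE and did not pass (0.67, SE 0.28, adjusted p = 0.200). No TIMP had overlapping groups. Both FAE arrays lay above both IFE arrays for 2 and below them for 1, where 26.7% and 32.5% of all tested genes did.

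PLAU gave the largest fold change of the 60 genes. Its signals were 48.6 and 34.9 in FAE against 4.09 and 3.34 in IFE, means of 41.8 ± 9.69 and 3.72 ± 0.525 (SD, n = 2 each), and both groups were above background. The log2 fold change was 3.48 (SE 0.29, adjusted p = 0.00232), and it passed under all 14 alternatives, with adjusted p between 8.85e-05 and 0.0309. On the same arrays the 12 tested macrophage and dendritic cell markers had a median log2 fold change of 3.25. The B cell, erythrocyte and T cell lists had medians of 2.71, 2.46 and 1.43. The fibroblast and muscle, thrombocyte, epithelial, endothelial and heterophil lists had -0.09, -0.41, -0.50, -0.53 and -1.77. Which cells the PLAU signal came from was not tested. The tissue-type activator PLAT had 1.24 and 2.26 in FAE against 1.43 and 2.19 in IFE, overlapping groups and a log2 fold change of -0.07. Its other probe sets were under background on both FAE arrays. Where a bound could be set for them, signal was at least 1.86-fold and 1.61-fold lower in FAE. The mean over the tested PLAT probe sets was -0.93, without a call (adjusted p = 0.264). PLAUR, the urokinase receptor, was in the symbol rule, but no probe set named it as its only gene, so it has no values here.

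**Figure D3:**
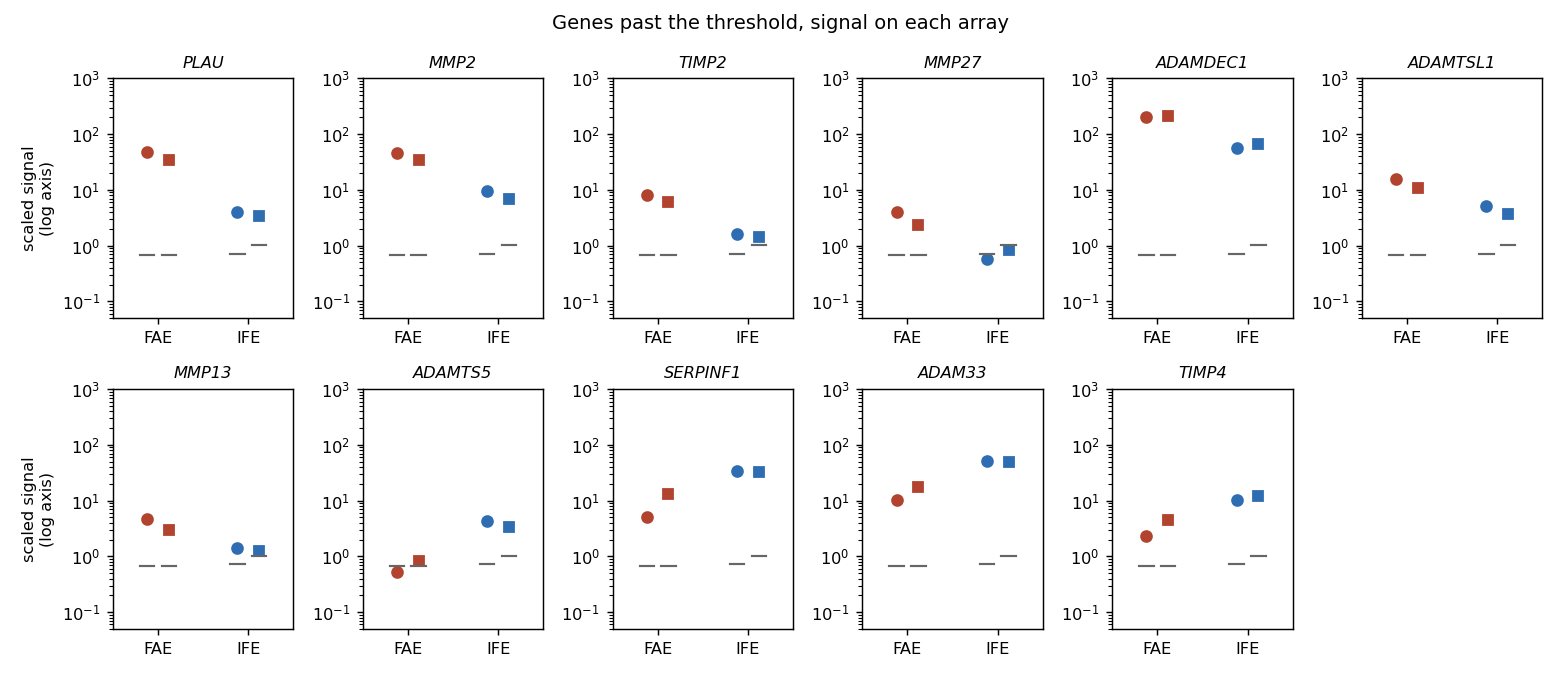
Scaled signal on a log axis for the 11 genes that passed, with FAE left of IFE in each panel. Circles are replicate 1, squares replicate 2, and grey dashes the background level of each array. PLAU is the first panel, with FAE at 48.6 and 34.9 and IFE at 4.09 and 3.34. The IFE points of MMP27 and 1 FAE point of ADAMTS5 lie under background.

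Among ADAM genes, ADAMDEC1 and ADAM33 passed in opposite directions. ADAMDEC1, which in mammals is made by macrophages and dendritic cells of the gut, had 202 and 209 in FAE against 57.2 and 68.0 in IFE, which is 1.72 on the log2 scale (SE 0.20, adjusted p = 0.00477). All 5 of its probe sets were tested and lay between 1.66 and 3.30, and 4 of them passed. ADAM33 had 10.1 and 17.7 in FAE against 51.0 and 49.3 in IFE, at -1.90 (SE 0.31, adjusted p = 0.0156). The FAE values varied more than the IFE values but stayed well below them. ADAM8, an enzyme of leukocytes in mammals, had 1.67 and 1.27 in FAE against 0.150 and 0.278 in IFE, where it was not above background, and was at least 1.70-fold higher (adjusted p = 0.0856).

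The main shedding enzymes of the family showed no call. ADAM17, which releases TNF and ligands of the EGF receptor, had 17.5 and 17.6 in FAE against 15.2 and 8.10 in IFE (0.66, SE 0.34, adjusted p = 0.298). ADAM10, which cuts Notch receptors and cadherins, had 251 and 272 in FAE against 217 and 434 in IFE (-0.23, SE 0.32, adjusted p = 0.704), so the FAE values fell inside the IFE range, and quantile normalization turned the sign (0.20). Another ADAM10 probe set had 104 and 101 in FAE against 44.0 and 50.0 in IFE and passed as higher (1.13, SE 0.21, adjusted p = 0.0220), so the probe sets of this gene disagree. ADAM9, ADAM23 and ADAM32 overlapped between groups, with log2 fold changes from -0.38 to 0.11. ADAM9L had 20.5 and 22.3 in FAE against 16.4 and 16.5 in IFE and did not pass (adjusted p = 0.389).

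Of 20 ADAMTS and ADAMTSL genes, 11 were tested, and 8 were under background on all 4 arrays. ADAMTS5, which cleaves the proteoglycans aggrecan and versican, had 0.532 and 0.816 in FAE against 4.24 and 3.35 in IFE, at -2.52 (SE 0.39, adjusted p = 0.0127). FAE replicate 1 was under background for this gene. ADAMTS1, its direct neighbour on chromosome 1, was too dim to be tested, with 0.456 and 0.463 in FAE against 0.924 and 0.656 in IFE. ADAMTSL1, a matrix protein with ADAMTS-like domains and no protease domain, passed as higher, with 15.9 and 10.9 in FAE against 5.19 and 3.66 in IFE (1.60, SE 0.32, adjusted p = 0.0300). Its other tested probe set gave -1.19 and did not pass (adjusted p = 0.421), and the mean of both gave 0.20.

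ADAMTS17 had 6.35 and 5.12 in FAE against 1.42 and 2.73 in IFE and just missed the threshold (1.53, SE 0.38, adjusted p = 0.0564). ADAMTS9, which acts on versican, had 3.46 and 3.64 in FAE against 8.23 and 5.74 in IFE (-0.95, SE 0.30, adjusted p = 0.106). The 4 tested probe sets of ADAMTS9 ranged from -0.95 to 0.88, and none passed. ADAMTS3, a procollagen-processing enzyme, was not above background in FAE, at 0.578 and 0.606 against 0.886 and 1.83 in IFE (adjusted p = 0.304). Both FAE arrays were below both IFE arrays for ADAMTS10, ADAMTS13 and ADAMTS15 as well, with log2 fold changes of -0.59, -0.58 and -0.73, none of which passed. ADAMTS6, ADAMTS20 and ADAMTSL2L overlapped between groups.

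Among serpins, SERPINF1 (pigment epithelium-derived factor, a secreted serpin without inhibitory activity) was lower in FAE. It had 5.11 and 13.2 in FAE against 34.7 and 32.0 in IFE, at -2.02 (SE 0.44, adjusted p = 0.0382). The call was lost with a common median (adjusted p = 0.0526) and without the trend (0.127). Its other 2 probe sets lay at -1.33 and -1.14, without a call (adjusted p = 0.0778 and 0.161). SERPINE2 (protease nexin), an inhibitor of thrombin and urokinase, had 63.7 and 92.6 in FAE against 162 and 138 in IFE and did not pass (-0.96, SE 0.24, adjusted p = 0.0607). SERPINI1 (neuroserpin), an inhibitor of the tissue-type plasminogen activator, had 1.38 and 0.979 in FAE against 3.02 and 2.36 in IFE (-1.20, SE 0.36, adjusted p = 0.100). SERPINH1, the collagen chaperone of the family, had 5.86 and 6.50 in FAE against 11.2 and 7.79 in IFE (adjusted p = 0.273). For all 4 of these genes both FAE arrays lay below both IFE arrays, as they did for 32.5% of all tested genes. Of the 11 tested serpins, 5 had overlapping groups.

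The clade B serpins, which act mainly inside cells, lie in a row with the ovalbumin genes on chromosome 2, in the order SERPINB1, SERPINB6, SERPINB10A, SERPINB10B, SERPINB2, OVAL, OVALY, OVALX, SERPINB12 and SERPINB5. No clade B member passed. SERPINB10B, the chromatin-condensing protein MENT of chicken blood cells, had 21.2 and 18.2 in FAE against 30.3 and 81.6 in IFE (-1.34, SE 0.45, adjusted p = 0.125), and the IFE arrays differed from each other more than IFE replicate 1 did from FAE. SERPINB1, an inhibitor of neutrophil elastase, had 7.43 and 8.07 in FAE against 5.28 and 6.63 in IFE (adjusted p = 0.439). SERPINB6, SERPINB2 and SERPINB5 overlapped between groups, with log2 fold changes of -0.09, 0.06 and -0.39. SERPINB12 was under background on all 4 arrays, at 0.0801 and 0.0664 in FAE and 0.654 and 0.685 in IFE.

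SERPING1, the inhibitor of complement C1 proteases, had 1.87 and 3.70 in FAE against 3.12 and 0.311 in IFE. Its IFE arrays differed more than those of any other tested member, by 3.33 on the log2 scale, and IFE replicate 2 was under background. The log2 fold change was 1.42 (SE 0.99, adjusted p = 0.439) with all arrays, 3.08 with a call without IFE replicate 1, and -0.25 without IFE replicate 2. SERPINE3 overlapped between groups, and the liver serpins SERPINA10 and SERPIND1 were too dim to be tested.

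No Kazal-type inhibitor passed on the probe set that stood for it, and neither did cystatin C. SPINK5, whose synonyms in the gene table include the egg white ovoinhibitor, had 383 and 528 in FAE against 598 and 803 in IFE (-0.62, SE 0.22, adjusted p = 0.148). Its probe set was the first or second brightest of all 38439 on every array (ranks 2 and 1 in FAE, 2 and 1 in IFE), so quantile normalization returned a log2 fold change of 0. CST3 (cystatin C), an inhibitor of cysteine cathepsins, had 289 and 371 in FAE against 397 and 515 in IFE (-0.47, SE 0.21, adjusted p = 0.231), and its direction turned with quantile normalization (0.06). SPINK7, the egg white trypsin inhibitor ovomucoid, is the next gene to SPINK5 on chromosome 13 and had 2.77 and 2.82 in FAE against 3.68 and 3.81 in IFE (adjusted p = 0.401).

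SPINK7 had 1 other probe set with a far larger difference. It read 0.0764 and 0.0476 in FAE, under background on both arrays, against 3.54 and 4.90 in IFE, and was at least 6.15-fold lower in FAE (adjusted p = 0.00927). The remaining SPINK7 probe sets gave log2 fold changes of -0.82 and -1.86 and did not pass, so all 4 pointed to lower signal in FAE while their sizes disagreed. The mean over the tested SPINK7 probe sets was -2.31 and passed as lower (adjusted p = 0.0234). SPINK2 had 0.824 and 1.16 in FAE against 1.17 and 2.11 in IFE, and SPINK4 had 2.54 and 1.68 in FAE against 1.93 and 1.66 in IFE, neither with a call. The broad-range inhibitor A2M had 1.48 and 1.04 in FAE against 1.18 and 0.575 in IFE, with overlapping groups (adjusted p = 0.561).

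Matriptase and the TMPRSS enzymes had no call. Matriptase (ST14), which activates surface proteins and supports barrier function in mammals, had 106 and 110 in FAE against 113 and 71.5 in IFE, with overlapping groups (0.27, SE 0.26, adjusted p = 0.577). TMPRSS2 had 21.4 and 24.7 in FAE against 22.3 and 25.3 in IFE, a difference of -0.05 on the log2 scale (SE 0.24) that turned to 0.08 with a common median. TMPRSS4 and TMPRSS6 overlapped as well, at -0.11 and 0.00, and TMPRSS9 had 0.30 (SE 0.33). TMPRSS3 was the exception in size, with 0.208 and 0.188 in FAE, under background on both arrays, against 1.02 and 1.44 in IFE. It was at least 1.79-fold lower in FAE and did not pass (adjusted p = 0.124).

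Several probe sets could be compared for 19 of the tested genes, and in 9 of these they fell on both sides of 0. Of 32 tested probe sets that did not represent their gene, 5 passed: 3 of ADAMDEC1, 1 of ADAM10 and 1 of SPINK7. Another PLAU probe set was near background, at 0.831 and 1.59 in FAE against 1.01 and 2.53 in IFE, and gave -0.48 (adjusted p = 0.660). The mean over both PLAU probe sets was 1.50 and passed. The second TIMP4 probe set, also dim, gave -0.21, and the mean over both then missed the threshold (-0.98, adjusted p = 0.0794). For SERPINF1 the mean over 3 probe sets was -1.49 (adjusted p = 0.0592).

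**Figure D4:**
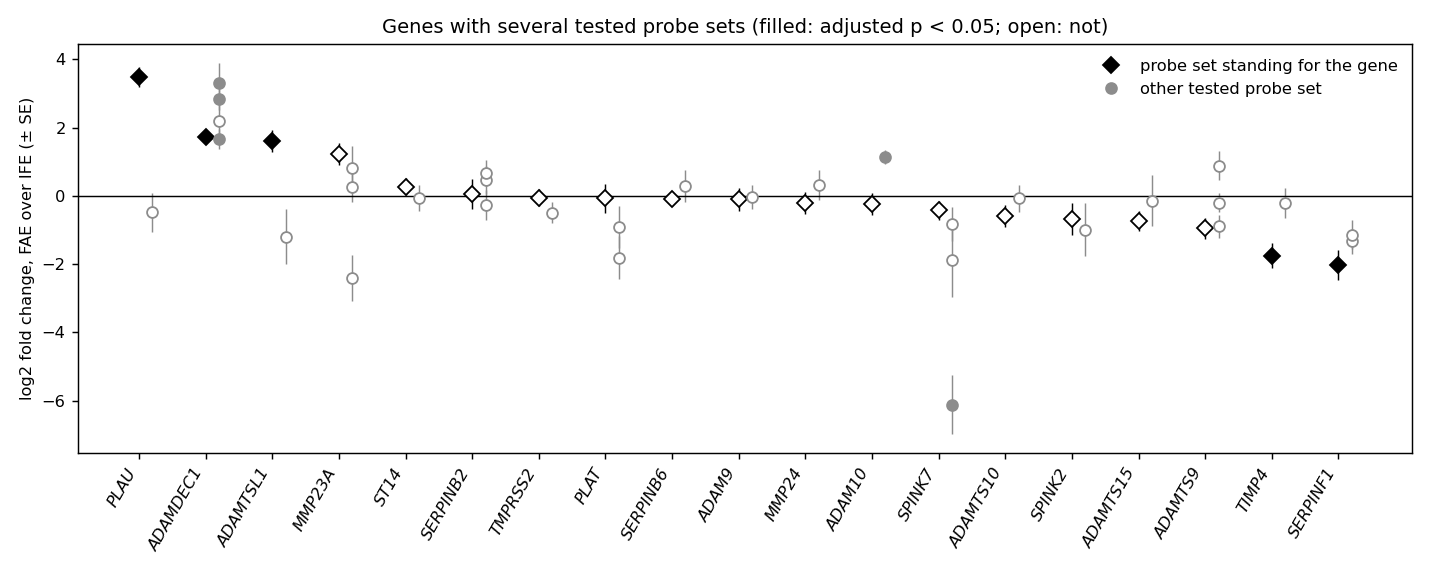
Log2 fold change of FAE over IFE with SE for every tested probe set of the 19 genes that have several, ordered by the probe set that stands for the gene. Diamonds stand for the gene, circles are its other probe sets, and filled symbols passed. The 5 ADAMDEC1 symbols all lie above 0, whereas PLAU, ADAMTSL1 and ADAM10 have symbols on both sides.

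The number of calls depended on single arrays. Without 1 FAE replicate the spread comes from the 2 IFE arrays alone. Without FAE replicate 1, PLAU alone of the 11 kept its call (adjusted p = 0.0276), and the others had adjusted p between 0.0790 for ADAMDEC1 and 0.526 for MMP13. Without FAE replicate 2, 6 kept it: PLAU, MMP2, TIMP2, ADAMTS5, ADAM33 and SERPINF1. The 5 that lost it were TIMP4 (adjusted p = 0.0576), ADAMDEC1 (0.0615), MMP27 (0.0955), ADAMTSL1 (0.115) and MMP13 (0.143). Of the 11, SERPINF1 differed most between these settings, with a log2 fold change of -1.33 without FAE replicate 1 and of -2.70 without FAE replicate 2. Without 1 IFE replicate the spread comes from the 2 FAE arrays alone (r = 0.965, against 0.917 for the IFE pair), and the lone IFE array is assumed to vary like them. All 11 passed in these settings, with 14 further members without IFE replicate 1 and 11 without IFE replicate 2, but calls over all genes grew as well, to 1854 higher and 1469 lower and to 1211 and 1101, so these settings say little about stability. ADAM8, ADAMTS17, MMP15, MMP23A, MMP7 and SERPINE2 passed in both of those settings, and MMP10 passed without either of FAE replicate 2 and IFE replicate 2 (adjusted p = 0.0311 and 0.0399). Without the intensity trend 3 of the 11 kept their calls, PLAU, TIMP2 and ADAMTS5, and the others had adjusted p between 0.0505 for MMP2 and 0.127 for SERPINF1. The direction of the 11 was the same in all 14 alternatives, but this was largely fixed in advance. Their groups did not overlap, so leaving out 1 array could not turn a sign. Settings that changed only the filter, the trend, the replicate block or the adjustment of p left the fold changes as they were. No alternative used the other probe sets alone, and those of PLAU and ADAMTSL1 lay on the other side of 0.

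**Figure D5:**
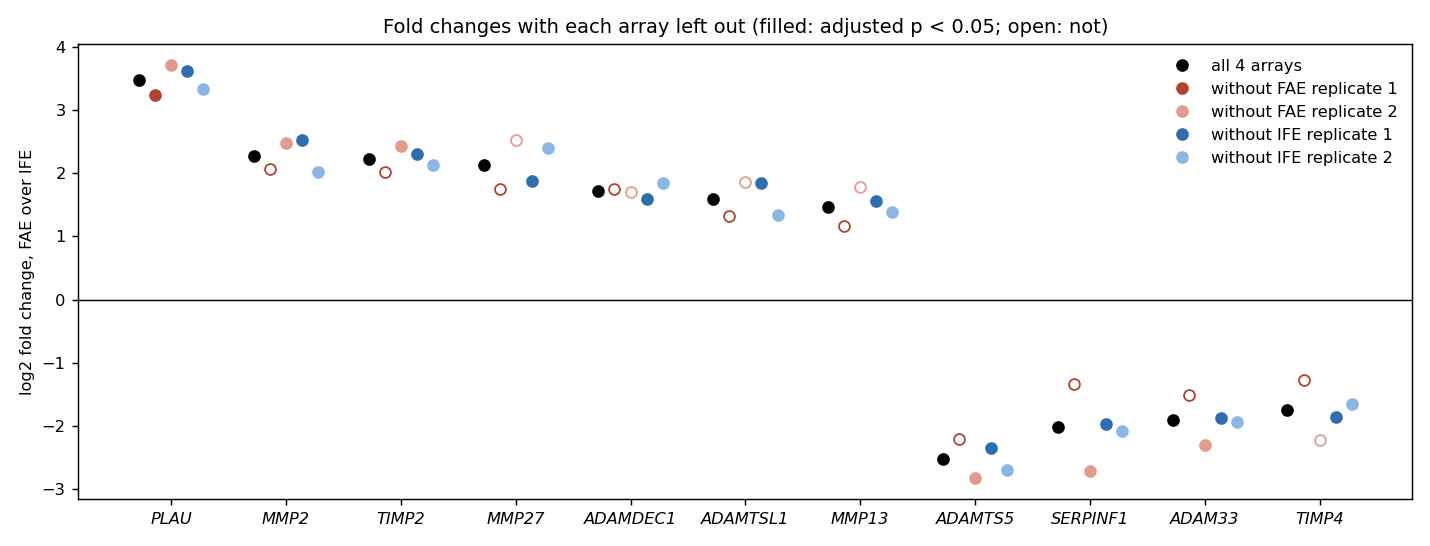
Log2 fold change of FAE over IFE for the 11 genes with all 4 arrays and with each array left out. Filled points passed and open points did not. No point crosses 0, which was fixed in advance because the groups of these genes do not overlap. Without FAE replicate 1 the PLAU point alone is filled.

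Other genes of proteolysis at the cell surface were taken from a list of 76, of which 61 were on the array and 48 were tested. Of these, 4 (8.33%) passed as higher and 2 (4.17%) as lower, close to the 6.31% and 3.96% of all tested genes. The median log2 fold change was -0.41, and both FAE arrays lay above both IFE arrays for 11 genes (22.9%) and below them for 23 (47.9%), where 26.7% and 32.5% of all tested genes did. The clotting factor F10, a serine protease, had 21.2 and 14.6 in FAE against 4.36 and 3.01 in IFE (2.28, SE 0.32, adjusted p = 0.00932). Its activator F7 had 4.23 and 3.43 in FAE against 1.04 and 1.002 in IFE (1.90, SE 0.32, adjusted p = 0.0172), and IFE replicate 2 was under background. Tissue factor (F3), the membrane cofactor that binds F7, was lower, with 11.5 and 12.6 in FAE against 51.9 and 68.5 in IFE (-2.30, SE 0.25, adjusted p = 0.00406). The cysteine protease inhibitor CSTA had 14.6 and 11.4 in FAE against 1.66 and 2.85 in IFE (2.57, SE 0.35, adjusted p = 0.00791). The peptidase MME (neprilysin) had 2.39 and 3.25 in FAE against 0.328 and 0.0964 in IFE, both under background, and was at least 3.25-fold higher in FAE (adjusted p = 0.0275). It passed the filter on dim probe sets through its FAE signal alone, and without that filter its adjusted p was 0.0376. The carboxypeptidase CPM had 0.873 and 1.48 in FAE against 4.205 and 6.12 in IFE and was lower, at -2.16 (SE 0.39, adjusted p = 0.0205). In all 6 genes the groups did not overlap, but they were chosen for their calls, so this adds no support. Without FAE replicate 1 none of these 6 passed (adjusted p between 0.0646 for F3 and 0.363 for MME), and F7 and MME also lost their calls without FAE replicate 2 (0.113 and 0.358).

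Other genes of that list act directly on or with the enzymes above, and 4 of them without a call are given here. Plasminogen (PLG), the substrate of urokinase, was under background on both FAE arrays, at 0.349 and 0.417 in FAE against 1.12 and 1.33 in IFE (adjusted p = 0.164). The matriptase inhibitor SPINT1 had 135 and 155 in FAE against 240 and 180 in IFE (-0.52, SE 0.21, adjusted p = 0.197). RECK, a membrane inhibitor of MMPs, had 1.50 and 1.81 in FAE against 2.21 and 1.27 in IFE, and BSG, an inducer of MMPs, had 127 and 123 in FAE against 109 and 100.3 in IFE.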

How the data were processed

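RNA of 2 FAE and 2 IFE samples was measured on 1 single-channel Affymetrix chicken array each. The deposited values are linear MAS5 signal intensity per probe set, per the submitters' processing notes, and their lowest value is 0.01. Which MAS5 version was run, and how, is not given in the sources used here. Of 38535 probe sets, 96 array controls were left out, 27168 of the others named 1 gene in the platform annotation, 177 named several and 11094 named none.

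Each array was scaled to the common mean that remains after trimming 2% of the values at each end, and values were taken to log2 with no offset. Probe sets with a mean scaled signal under the 40th percentile (0.695) were left out, which removed 15376 and kept 23063. This mean runs over both groups, so a probe set could enter through the signal of 1 group alone. Among others, MME, ADAM8, MMP1 and HBA1 entered through FAE in this way. ADAMTS5, TMPRSS3 and the SPINK7 probe set with the largest difference entered through IFE. Their p-values carry this limit. FAE was compared with IFE in limma 3.58.1 (R 4.3.3; lmFit, eBayes with an intensity trend), with Benjamini-Hochberg adjustment over all tested probe sets. The procedure was tested on simulated data drawn from limma's own variance model, with equal spread in both groups. That test cannot show how the procedure behaves where the real arrays depart from the model. The small number of arrays limits the precision. Where a group lay under background on both arrays, the fold is given as a bound against the higher of each array's background and the probe set's own signal.

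The genes, lists and tests were chosen with earlier results of these data known. Named genes are all that passed, up to 4 per family by p, all tested members of families with 6 or fewer, the 5 largest fold changes in each direction, and the called genes of the wider list. Further members were named to account for the whole group. Alternatives were quantile normalization, a common median, no or a stricter filter (60th percentile), an offset of 0.5, no trend, a replicate block, each array left out, adjustment over 1 probe set per gene, the mean of a gene's probe sets, and no _s_at or _x_at probe sets. Chromosomes and gene order come from the assembly bGalGal1.mat.broiler.GRCg7b, where all 83 genes were found by symbol.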

Additional observations from a re-analysis of the deposited data

How the results depend on the processing

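With all arrays, 7 members passed as higher and 4 as lower, as did 656 and 411 of all tested genes and 4 and 2 of the wider list. Without the intensity trend these were 3 and 2 members, 244 and 48 genes, and 0 and 1 of the wider list, and of the 5 members ADAM8 and TMPRSS3 had no call with the trend. Leaving out 1 array gave 1 to 16 members higher and 0 to 9 lower, 132 to 1854 genes higher and 27 to 1469 lower, and 0 to 7 higher and 0 to 8 lower in the wider list. The replicate numbers are shared only as numbers (correlation of same-numbered deviations 0.0246 over 2 pairs). A fit with the replicate number as a block gave 10 members higher and 7 lower, 807 genes higher and 651 lower, and 5 and 4 of the wider list. The wider list had 4 lower when p was adjusted over 1 probe set per gene and 4 with the mean of a gene's probe sets. A common median moved the median log2 fold change of all tested probe sets by 0.13, and quantile normalization by 0.01.

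Among the genes of the naming rule, signs turned as follows, none for a gene that passed with all arrays. The groups of those that passed did not overlap, so leaving out 1 array could not turn them. With quantile normalization CST3 became 0.0603 and TMPRSS6 0.0908. With a common median PLAT became 0.0542, TMPRSS2 0.0775, TMPRSS4 0.0164 and TMPRSS6 0.13. Leaving out 1 array gave -0.51 to 0.36 for PLAT, -0.092 to 0.51 for SPINK4, -0.0558 to 0.60 for ST14, -0.16 to 0.0528 for TMPRSS2, -0.27 to 0.049 for TMPRSS4 and -0.31 to 0.31 for TMPRSS6. The causes were not tested. Over the 39 genes of the naming rule and 14 alternatives, 442 values kept direction and side of the threshold, 45 lost the call, 31 gained one and 15 turned. Genes that an alternative did not measure are left out of these counts. The filter, trend, block and adjustment settings leave fold changes unchanged, so many of the 442 could not have turned. Over all 60 tested members, 22 turned sign in at least 1 alternative, among them ADAM10, ADAM9, SERPING1, SERPINB2, SERPINB6, ADAMTS6 and SERPINE3, and 0 of these had passed. Depth has no direct measure on arrays, and 15 of the 83 members lay under background on all 4.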
